A study of Homo sapiens with 6 samples.

Results

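Integrins, collagens and laminins are the families that hold a cell to the matrix it lives on. They were taken here as the genes whose symbol has the form of a collagen chain (COL), an integrin alpha or beta chain (ITGA, ITGB1 to ITGB8) or a laminin alpha, beta or gamma chain (LAMA, LAMB, LAMC). Of the 16798 genes in the deposited gene table, 79 had such a symbol, with 42 collagen, 25 integrin and 12 laminin genes. Total RNA of COV434 cells, an established human cell line labelled as granulosa cells, was sequenced from 3 control samples and 3 samples treated with 4HC, the active metabolite of the chemotherapy drug cyclophosphamide (CTX), at 15 µM for 24 h. Both groups were of the same line, grown in DMEM with fetal bovine serum. The genotype label was WT for controls and CTX for treated samples. Control samples were told from treated ones by their titles and by having no treatment label, while the protocol text that describes the 4HC exposure was attached to all 6 samples. Nothing in the labels stated whether the 3 samples of a group were separate cultures, so p-values measure only the spread between these samples.

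Collagens are triple helices of chains from one or several genes. Fibrillar collagens make the fibres of connective tissue, and collagen IV makes the network of basement membranes. Laminins, each of an alpha, a beta and a gamma chain, form the other network of the basement membrane, and integrins, each of an alpha and a beta chain, span the cell membrane and bind these proteins on the outside and the cytoskeleton on the inside. In the ovary, granulosa cells rest on the basal lamina of the follicle, which holds collagen IV and laminin.

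Levels are given as CPM, counts scaled to 1000000 per library after TMM normalization, for comparisons of one gene between samples. TPM, the deposited value per transcript length, is used where genes are compared with each other. Values are mean ± SD of 3 samples. A gene was called expressed in controls when it had at least 1 CPM in each of the 3 control samples. The difference between 4HC and control was tested with edgeR's quasi-likelihood test over 12368 genes, with Benjamini-Hochberg adjusted p-values, and a gene rose or fell when its adjusted p was under 0.05. Intervals are 95% intervals from the fit's standard error under a normal distribution. The expected counts summed to between 16133786 and 16702316 per sample, and the first principal component, with 50.7% of the variance, separated the groups. Of 12 listed granulosa cell markers with a row, 2 were expressed in controls, AMH at 5.19 CPM and HSD17B1 at 14.2 CPM. FOXL2, a defining granulosa transcription factor, had 0 counts in every control, and the 12 markers together summed to 17.4 to 24.2 CPM in control and 19.9 to 21.2 CPM in 4HC. Of 8 fibroblast and stroma markers, 5 were expressed, with sums of 927 to 971 CPM in control and 971 to 987 CPM in 4HC, and of these TAGLN rose and POSTN fell. Most of the control sum was TAGLN (434 CPM) and ACTA2 (222 CPM). POSTN (182 CPM), LUM (65.8 CPM) and DCN (48.0 CPM) made nearly all of the rest. PDGFRA, PDGFRB and THY1 of the same list were near 0 in control, at 0.245, 0.205 and 0.285 CPM. The 6 endothelial markers summed to 67.0 to 70.2 CPM in control and 57.9 to 59.7 CPM in 4HC, nearly all of it TEK, which fell, and the 6 epithelial markers to 5.97 to 8.12 and 7.28 to 7.83 CPM. The matrix genes described here were therefore measured in cells whose granulosa markers were mostly near 0, and the part of cell identity in the results was not tested.

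Of the 79 genes, 35 (44.3%) were expressed in controls, against 68.9% of all genes in the table. These were 14 of 25 integrins (56.0%), 16 of 42 collagens (38.1%) and 5 of 12 laminins (41.7%). Of the 44 that were not expressed, 22 had at most 3 counts in every sample. COL4A3, ITGA8, ITGAM, ITGB2 and ITGB7 had 0 counts in all 3 controls, which allows up to 3 counts in each of them. ITGB2 and ITGAM encode chains of leukocyte integrins, and the leukocyte marker list summed to 1.99 to 2.22 CPM in control. Of its 6 markers, 4 had a row, and most of the sum was PTPRC, which was expressed in controls at 1.61 ± 0.0983 CPM. ITGAX, COL6A5 and COL13A1 were not analysed here.

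The integrin level was carried by one chain. ITGB1, the beta chain shared by most integrins of adherent cells, stood at 233 ± 7.21 TPM in control and made 82.8% of the summed integrin TPM. The next were the laminin-binding ITGA6 at 10.8 ± 1.37 TPM and ITGAV at 9.73 ± 0.19 TPM, whose samples overlapped. Among collagens, COL5A2 (129 ± 3.33 TPM), COL8A1 (103 ± 4.21 TPM) and COL3A1 (85.1 ± 2.69 TPM) held 82.6% of the collagen TPM, and their control samples did not overlap. Among laminins, LAMB2 (98.7 ± 0.779 TPM), LAMC1 (50.0 ± 0.347 TPM) and LAMA5 (14.5 ± 0.239 TPM) held 94.1%. Across families, COL8A1 and LAMB2 overlapped, while ITGB1 was above every other member in each control.

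**Figure D1:**
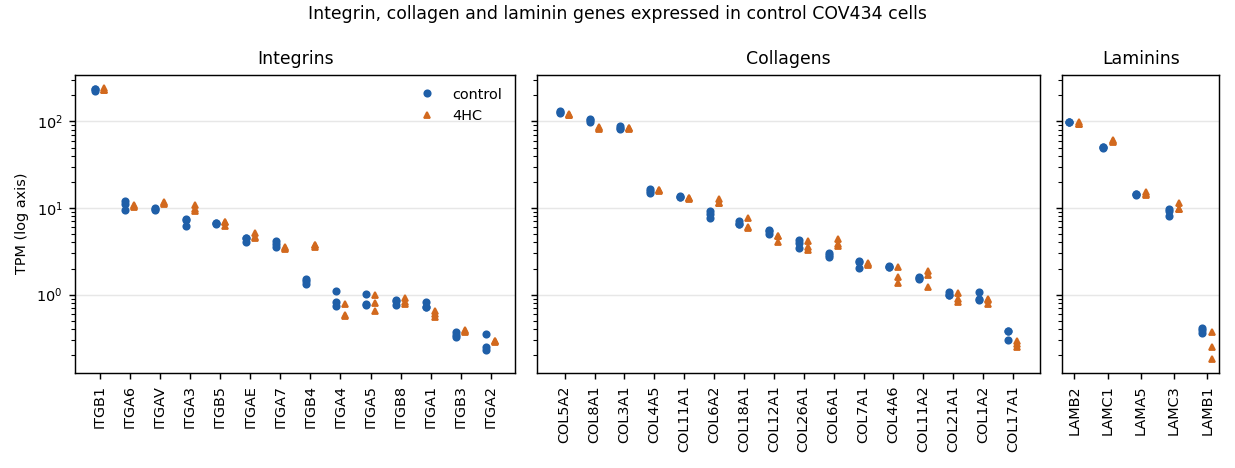
TPM (log axis) of the 35 genes expressed in controls, by family and in order of the control mean, with 1 point per sample (circles control, triangles 4HC). ITGB1 at 233 TPM stands over the other integrins, and 3 collagens and 2 laminins have control means of 50.0 TPM or more.

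Several expressed chains lacked a partner in the assemblies that were listed. Of 9 laminin trimers listed, 2 had all chains expressed, LAMA5 with LAMC1 and either LAMB1 or LAMB2. LAMB1 was at 0.387 ± 0.0252 TPM against the 98.7 TPM of LAMB2. It shares 70 exon bases with DLD on the opposite strand, and the part of DLD in its counts was not tested. LAMC3 was also expressed, at 9.04 ± 0.85 TPM, but no listed trimer holds it, so trimers with LAMC3 were not counted. LAMA1, LAMA2, LAMA3 and LAMA4, the other alpha chains measured, were not expressed by the threshold used. LAMA2 (1.06 ± 0.472 CPM) and LAMA4 (0.795 ± 0.0695 CPM) were close to it in controls. Of 9 collagen assemblies listed, each of more than 1 gene, 1 was complete, COL4A5 with COL4A6. Helices made from a single gene, and other mixtures of chains, were not listed, so the count does not cover them. The common collagen IV chains COL4A1 and COL4A2 were close to absent, with 0, 0 and 1 counts for COL4A1 and 1, 0 and 1 for COL4A2 in the controls. COL5A2, the most abundant collagen, had 2, 1 and 2 counts of its partner COL5A1, and COL6A1 and COL6A2 had 0, 2 and 0 counts of COL6A3. COL8A1 had 0, 1 and 0 counts of COL8A2. COL1A2 was expressed at 2.87 ± 0.336 CPM, while COL1A1 fell just under the threshold at 0.917 ± 0.0109 CPM. Of 24 integrin pairs, 12 had both chains expressed, among them ITGB1 with 8 alpha chains, ITGA6 with ITGB4, and ITGAV with ITGB3, ITGB5 and ITGB8.

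**Figure D2:**
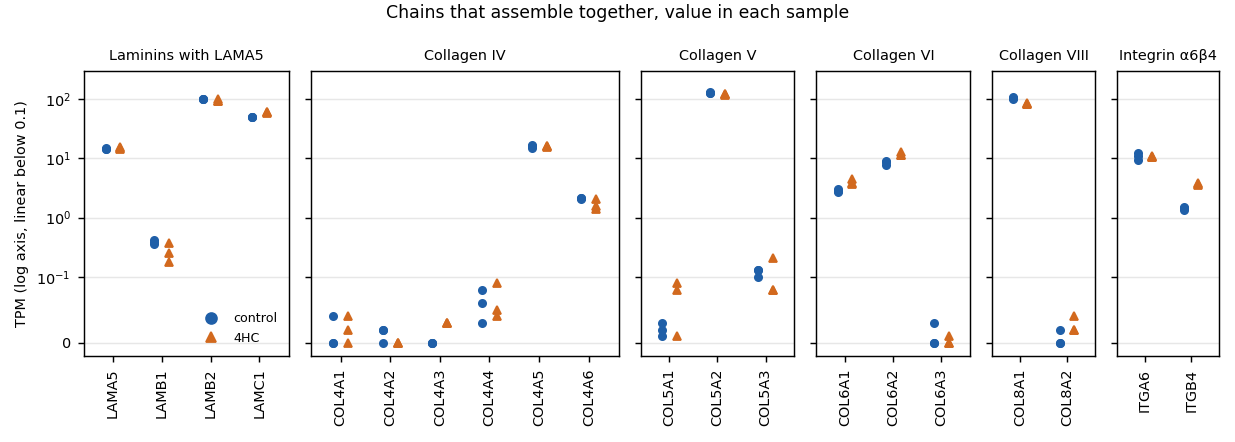
TPM in each sample (axis logarithmic above 0.1 and linear below) of chains grouped by assembly or collagen type, with circles for control and triangles for 4HC. COL4A1, COL4A2, COL5A1, COL6A3 and COL8A2 lie near 0. Control means of the expressed chains in the same panels run from 2.10 TPM (COL4A6) to 129 TPM (COL5A2). COL4A1 and COL4A2 were listed as partners of each other, and COL4A5 and COL4A6 likewise.

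Promoters of some members are shown from RefSeq (GRCh38.p14), from base 250 to base 21 before the gene's start, 230 bases in all. Of the 79 members, 57 had an entry. ITGB4, ITGA3, COL6A1, LAMC3, COL5A2 and COL8A1, which rose or fell in 4HC, had none, so their promoters were not examined. COL6A2 and LAMC1 are shown because they rose in 4HC and their promoters held the GC box, GGGCGG on either strand, 3 times each. They were picked for these matches. ITGAV, the remaining member that rose with an entry, held none. COL12A1 and COL4A6, which fell, held 1 and 0, and COL18A1, LAMA5 and ITGB1, which did not pass the test, held 9, 5 and 3. COL4A5 is shown because its promoter lies in the space between it and COL4A6, which is read in the opposite direction and fell while COL4A5 did not pass the test. Capitals mark the GC box (GGGCGG, or CCGCCC where it lies on the other strand) in the first and second sequence. In the last they mark the CCAAT box (CCAAT, or ATTGG where it lies on the other strand). The positions are chr21:46097862-46098091 for COL6A2, chr1:183023170-183023399 for LAMC1 and chrX:108439588-108439817 for COL4A5, each on the plus strand.
COL6A2: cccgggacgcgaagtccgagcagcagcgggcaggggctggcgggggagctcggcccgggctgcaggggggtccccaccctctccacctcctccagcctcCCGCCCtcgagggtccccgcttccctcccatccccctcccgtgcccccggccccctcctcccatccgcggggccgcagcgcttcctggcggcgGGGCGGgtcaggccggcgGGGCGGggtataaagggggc
LAMC1: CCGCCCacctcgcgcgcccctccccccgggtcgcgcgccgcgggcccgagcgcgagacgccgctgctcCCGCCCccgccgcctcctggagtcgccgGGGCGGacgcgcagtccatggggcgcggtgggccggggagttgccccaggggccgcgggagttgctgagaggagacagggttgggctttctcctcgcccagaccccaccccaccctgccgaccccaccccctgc
COL4A5: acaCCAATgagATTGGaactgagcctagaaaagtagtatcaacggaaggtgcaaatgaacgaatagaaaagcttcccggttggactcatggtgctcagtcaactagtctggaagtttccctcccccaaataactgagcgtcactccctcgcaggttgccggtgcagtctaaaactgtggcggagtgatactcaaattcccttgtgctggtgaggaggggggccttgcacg
The COL6A2 window was 79.1% G or C and the LAMC1 window 79.6%, against a median of 57.4% over 27305 promoters and 63.0% over the 57 members. A GC box was in 39.6% of all promoters and in 30 of the 57 members, and a CCAAT box was in 31.7% of all promoters. The COL4A6 window, not printed, was 41.3% G or C and held 3 CCAAT boxes. The COL4A5 start lay 379 bases from one listed start of COL4A6 and 1415 bases from the other. The p53 motif (1 arm of its response element, either strand), searched by name as p53 is the transcription factor of the DNA damage response, was found in 1 of the 57 members, against 5.09% of all promoters. The matches describe letters in these windows only.

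Of the 79 members, 43 passed the filter on low counts and were tested. In 4HC, 7 of them rose (ITGB4, ITGA3, ITGAV, COL6A1, COL6A2, LAMC1 and LAMC3) and 4 fell (COL5A2, COL8A1, COL12A1 and COL4A6), while 32 did not pass the test. Without control replicate 3, 2 fell. The 11 called were 25.6% of those tested, against 36.4% of all 12368 genes tested, of which 19.2% rose and 17.1% fell. Where either group averaged 5 CPM or more, 11 of 26 members were called (42.3%) against 40.8% of 10375 genes (21.0% higher and 19.8% lower), so the share of members called was close to the background. Of 16 integrins tested, 3 rose and 0 fell (18.8% called), and of 7 laminins 2 rose and 0 fell (28.6%). Of 20 collagens, 2 rose and 4 fell (30.0%). Since 17.1% of all genes fell, few falls would be found in sets this small, and the families were not compared by a test. The median log2 fold change was 0.00 over the members tested and 0.005 over all genes tested. It was 0.03 in integrins, -0.03 in collagens and 0.03 in laminins. The study's thresholds, a fold change of 2 or more and unadjusted p under 0.05, were also applied to the edgeR fit. ITGB4 was the only member to meet them. Of all genes tested, 1.16% met them, 1.02% upward and 0.146% downward. The paper used DESeq2 and reported far more genes in each direction, so these shares are not its result. The reason for this difference was not tested. Samples of the groups did not overlap in 9 members that were higher and 8 that were lower, against 23.4% and 21.9% of all genes, or 45.3% in either direction. In these bulk samples, a change in the cells' make-up and a change in RNA per cell cannot be told apart.

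**Figure D3:**
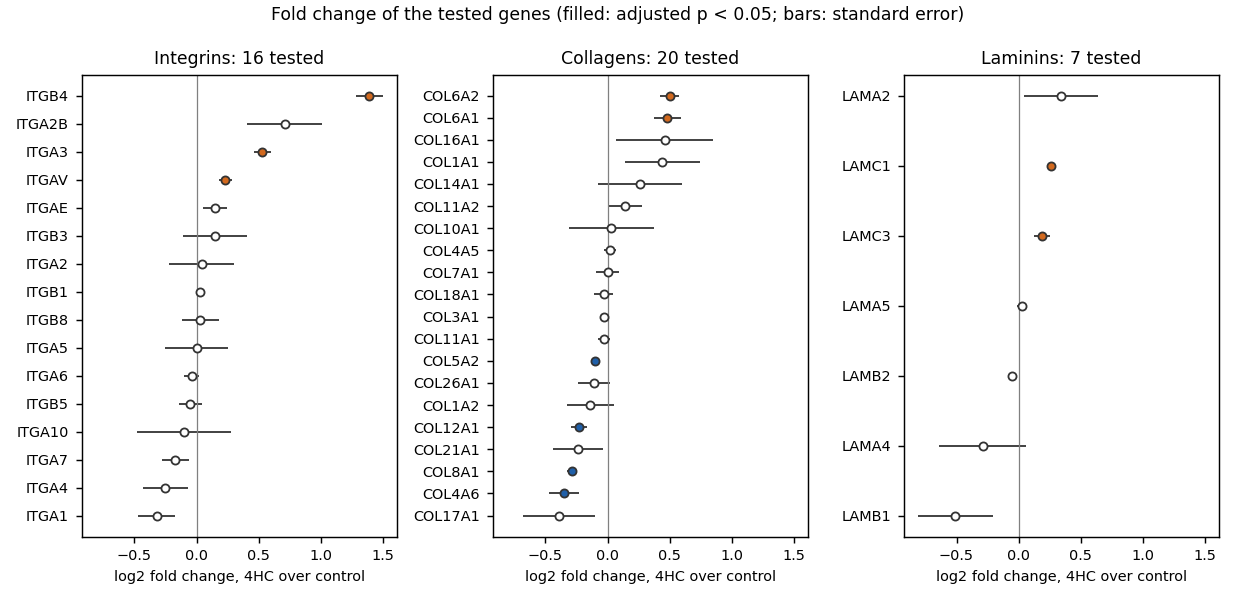
Log2 fold change of 4HC over control for the 43 tested genes, by family, with bars of 1 standard error and filled points for an adjusted p under 0.05. The filled points range from ITGB4 at 1.39 to COL4A6 at -0.35, and most open points lie near 0 or have wide bars.

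ITGB4 changed most. It encodes the beta chain that pairs only with ITGA6 to make the laminin receptor of hemidesmosomes, and lies at chr17:75721328-75757818 (GRCh38, plus strand). Its counts were 81, 74 and 84 in control and 217, 211 and 199 in 4HC. In CPM these were 4.99, 4.55 and 5.06 in control and 13.1, 13.0 and 12.2 in 4HC. Every 4HC sample was more than 2 times the highest control. The means were 4.87 ± 0.277 and 12.8 ± 0.506 CPM, a 2.62-fold rise (log2 fold change 1.39, SE 0.11, adjusted p = 6.36e-15). The transcript with most of its counts had 46.2 ± 22.7 expected counts in control and 121 ± 21.8 in 4HC, without overlap, and a second one overlapped. GALK1, a galactose kinase gene on the opposite strand, shares 6225 bases of span with ITGB4 but no exon bases. GALK1 also rose, from 32.2 ± 0.568 to 40.0 ± 0.706 CPM (log2 fold change 0.31, SE 0.057, adjusted p = 1.34e-05), the strandedness of the libraries was not stated, and its part in the ITGB4 value was not tested.

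The partner of ITGB4 did not pass the test. ITGA6 was at 37.1, 32.5 and 40.6 CPM in control and 34.7, 36.7 and 36.1 CPM in 4HC, so that the groups overlapped (log2 fold change -0.04, 95% interval -0.16 to 0.09). The ratio of ITGB4 to ITGA6 in TPM was 0.131, 0.141 and 0.125 in control and 0.367, 0.345 and 0.333 in 4HC. The ratio was higher in every 4HC sample, and the 6 ratios of chains given here were chosen after the values were seen. With 3 samples against 3, an exact two-sided permutation test cannot give a p under 0.1. The ratio of COL6A2 to COL6A1 gave p = 1.0 in that exact test, and the other 5 ratios gave p = 0.1 (Benjamini-Hochberg adjusted over the 6 ratios, 0.12), so that none passed.

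ITGA3, the alpha chain of another laminin receptor with ITGB1, lies at chr17:50055968-50090481 on the plus strand. It had 21.7, 20.9 and 18.0 CPM in control and 31.4, 29.0 and 27.0 CPM in 4HC. All 4HC samples were above all controls, and the means were 20.2 ± 1.95 and 29.1 ± 2.17 CPM (log2 fold change 0.53, SE 0.071, adjusted p = 2.61e-08). Its main transcript had 267 ± 42.1 expected counts in control and 440 ± 61.4 in 4HC, without overlap, while the minor one overlapped between groups (63.6 ± 26.3 and 37.2 ± 23.9). ITGA7, the remaining laminin-binding alpha chain, was lower in every 4HC sample without passing the test (9.34 ± 0.797 to 8.30 ± 0.127 CPM, log2 fold change -0.17, SE 0.11). Of the 3 laminin-binding alpha chains, then, 1 rose and 2 did not pass.

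ITGAV, the alpha chain of the vitronectin receptors, which bind the RGD motif of matrix proteins, lies at chr2:186590065-186680901 on the plus strand. It had 42.4, 41.5 and 41.7 CPM in control and 50.1, 48.4 and 49.1 CPM in 4HC. The groups were narrow and apart, at 41.9 ± 0.459 and 49.2 ± 0.819 CPM (log2 fold change 0.23, SE 0.052, adjusted p = 0.000317). None of its expressed beta partners passed the test. ITGB1 had 521, 499 and 519 CPM in control and 509, 520 and 539 CPM in 4HC, and the groups overlapped (log2 fold change 0.03, 95% interval -0.04 to 0.09). ITGB5 gave a log2 fold change of -0.05 (95% interval -0.23 to 0.12), ITGB8 of 0.03 (-0.27 to 0.33) and ITGB3, near 1 CPM, of 0.15 with an SE of 0.26. ITGB3 shares 2266 exon bases with AC068234.1 on the same strand, so its counts are uncertain. In TPM, the ratio to ITGB1 went from 0.0418 ± 0.000784 to 0.0485 ± 0.00168 for ITGAV and from 0.0301 ± 0.00312 to 0.0422 ± 0.00412 for ITGA3, both without overlap.

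The collagen-binding integrins did not pass the test. ITGA1 was lower in each 4HC sample, with 4.80, 4.80 and 5.43 CPM in control and 3.98, 4.38 and 3.67 CPM in 4HC, but its adjusted p was 0.0866 (log2 fold change -0.32, SE 0.15). It shares 475 exon bases with PELO on the same strand, so its counts are uncertain. ITGA2 had a log2 fold change of 0.04 (SE 0.26) and ITGA10, not expressed in controls by the threshold used, of -0.10 (SE 0.38). ITGA2B, the platelet alpha chain, came closest to the threshold from below, at 0.837 ± 0.283 CPM in control and 1.36 ± 0.0697 CPM in 4HC (adjusted p = 0.0572). ITGAE, an alpha chain of intraepithelial lymphocytes, was 10.8 ± 0.602 and 11.9 ± 0.732 CPM (log2 fold change 0.15, SE 0.096), its partner ITGB7 had 0 counts in the controls, and it shares 427 exon bases with HASPIN on the opposite strand. ITGA4 and ITGA5, which bind fibronectin, had log2 fold changes of -0.25 (SE 0.18) and 0.00 (SE 0.25).

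**Figure D4:**
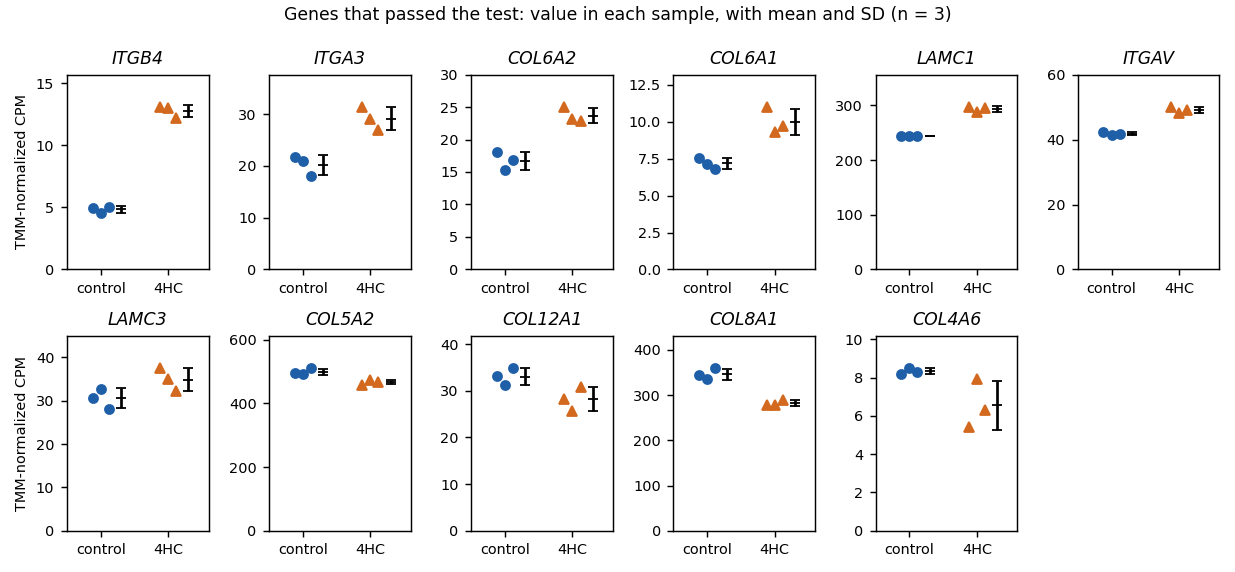
TMM-normalized CPM in each sample of the 11 genes that passed the test (circles control, triangles 4HC, bars mean and SD of 3 samples, each axis from 0). The groups are apart in every panel except LAMC3, where the highest control (32.8 CPM) exceeds the lowest 4HC sample (32.2 CPM).

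Both tested laminin gamma chains rose. LAMC1, the gamma chain of most laminins, lies at chr1:183023460-183145592 on the plus strand and has the GC-rich promoter printed above. It had 244 CPM in each control and 297, 287 and 295 CPM in 4HC. All 4HC samples were above the controls, at 293 ± 5.47 CPM, and the log2 fold change was 0.26 (SE 0.033, adjusted p = 6.44e-09). LAMB2, its most abundant beta partner, had 337, 343 and 341 CPM in control and 340, 323 and 326 CPM in 4HC. LAMB2 overlapped between the groups (log2 fold change -0.05, 95% interval -0.11 to 0.02). LAMA5, the alpha chain, had 104, 102 and 103 CPM in control and 109, 105 and 101 CPM in 4HC, and its groups overlapped as well (log2 fold change 0.03, 95% interval -0.05 to 0.11). The ratio of LAMC1 to LAMB2 in TPM went from 0.507 ± 0.0049 to 0.628 ± 0.0109. LAMA5 shares 244 exon bases with ADRM1 on the opposite strand.

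LAMC3, the gamma chain of less common laminins, lies at chr9:131009082-131094473 on the plus strand. It had 30.7, 32.8 and 28.2 CPM in control and 37.5, 35.0 and 32.2 CPM in 4HC. The groups overlapped, at 30.6 ± 2.35 and 34.9 ± 2.67 CPM (log2 fold change 0.19, SE 0.063, adjusted p = 0.0139). Its call was lost without control replicate 3 (adjusted p = 0.15) and without 4HC replicate 1 (0.142), in a range of 0.00214 to 0.15 over all settings tried. LAMB1, near 1 CPM, had 21, 20 and 23 counts in control and 14, 21 and 10 in 4HC, and did not pass (log2 fold change -0.51, SE 0.30, adjusted p = 0.181).

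The collagen VI chains COL6A1 and COL6A2, which form beaded microfibrils around cells, rose together. They lie on the same strand of chromosome 21, at chr21:45981737-46005050 and chr21:46098097-46132849, with 93046 bases between them. COL6A2 had 18.1, 15.3 and 16.8 CPM in control and 25.0, 23.2 and 22.8 CPM in 4HC. Its means of 16.7 ± 1.43 and 23.7 ± 1.19 CPM were apart in all samples (log2 fold change 0.50, SE 0.075, adjusted p = 2.47e-07). COL6A1 had 7.58, 7.14 and 6.81 CPM in control and 11.0, 9.31 and 9.73 CPM in 4HC. It too was higher in each 4HC sample, at 7.17 ± 0.383 and 10.0 ± 0.904 CPM (log2 fold change 0.48, SE 0.11, adjusted p = 0.00042). The ratio of COL6A2 to COL6A1 in TPM was 2.95 ± 0.222 in control and 2.97 ± 0.128 in 4HC, and its samples overlapped. The main COL6A2 transcript had 211 ± 21.7 and 318 ± 21.7 expected counts, and the next one 57.5 ± 12.7 and 51.0 ± 18.1. COL6A3 had at most 2 counts in any sample, and COL7A1, which anchors basement membranes to the tissue beneath, was 13.0 CPM in both groups (log2 fold change 0.00, SE 0.091).

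Among fibrillar collagens, COL5A2 fell slightly. COL5A2, a chain of the collagen that seeds fibrils, lies at chr2:189031896-189225312 on the minus strand, and had 496, 493 and 510 CPM in control and 459, 473 and 467 CPM in 4HC. The samples did not overlap, at 500 ± 9.39 and 466 ± 7.21 CPM (log2 fold change -0.10, SE 0.031, adjusted p = 0.00977), and the call was lost without control replicate 3 (adjusted p = 0.0661, range over all settings 0.00252 to 0.0661). COL3A1, its neighbour end to end at a distance of 19149 bases, had 282, 277 and 291 CPM in control and 278, 274 and 280 CPM in 4HC. The COL3A1 groups overlapped (log2 fold change -0.03, 95% interval -0.10 to 0.04). COL11A1 gave a log2 fold change of -0.03 (SE 0.05) and COL11A2 of 0.14 (SE 0.14), and the authors assigned reads of COL11A2 to alternate sequences of its region, so its counts are uncertain. COL1A1 and COL1A2, the chains of the main collagen of skin and bone, had log2 fold changes of 0.44 (SE 0.30) and -0.14 (SE 0.19).

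COL8A1, a network collagen of vessel walls and the cornea, had the smallest adjusted p among the members that fell. It lies at chr3:99638475-99799226 on the plus strand, and had 344, 335 and 359 CPM in control and 279, 279 and 290 CPM in 4HC. Every 4HC sample was below every control, at 346 ± 11.8 and 283 ± 6.54 CPM (log2 fold change -0.29, SE 0.034, adjusted p = 5.74e-10). Both of its transcripts were lower without overlap, at 3753 ± 205 and 3197 ± 203 expected counts for the larger one and 1911 ± 252 and 1436 ± 108 for the other. Summed over all collagens, TPM was 382, 373 and 396 in control and 358, 353 and 356 in 4HC, so that the collagen total was lower in every 4HC sample. The summed integrin TPM was 272 to 286 in control and 288 to 296 in 4HC, and the summed laminin TPM 173 to 174 and 176 to 188. These sums are mostly those of the 3 most abundant genes of each family and were not tested.

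COL12A1, a collagen that sits on the surface of fibrils, lies at chr6:75084326-75206051 on the minus strand. Its values were 33.1, 31.2 and 34.8 CPM in control and 28.3, 25.6 and 30.8 CPM in 4HC. The highest 4HC sample was just below the lowest control, and the means were 33.0 ± 1.77 and 28.2 ± 2.57 CPM (log2 fold change -0.23, SE 0.064, adjusted p = 0.00415), with the call lost without 4HC replicate 2 (adjusted p = 0.0722, range over all settings 0.000453 to 0.0722). COL18A1, a basement membrane collagen whose end fragment is endostatin, was 21.9 ± 1.27 and 21.4 ± 3.04 CPM (log2 fold change -0.03, SE 0.077), and shares 1401 exon bases with SLC19A1 on the opposite strand. COL26A1 gave -0.11 (SE 0.13) on the log2 scale. COL17A1, a collagen of the cell membrane, and COL21A1 were lower in every 4HC sample but did not pass the test (log2 fold changes of -0.39, SE 0.29, and -0.24, SE 0.20). COL10A1, COL14A1, COL16A1, LAMA2 and LAMA4, none of which was called expressed, did not pass either.

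The pair of collagen IV genes on the X chromosome differed. COL4A6 lies at chrX:108155607-108439497 on the minus strand, head to head with COL4A5 at chrX:108439844-108697545. COL4A6 had 8.19, 8.49 and 8.32 CPM in control and 5.43, 7.95 and 6.30 CPM in 4HC. The 4HC samples were spread but all below the controls, at 8.33 ± 0.149 and 6.56 ± 1.28 CPM (log2 fold change -0.35, SE 0.12, adjusted p = 0.0239). This call was the least stable, since it was lost without control replicate 2 (adjusted p = 0.0603), control replicate 3 (0.057), 4HC replicate 1 (0.182) or 4HC replicate 3 (0.0573), with a range of 0.00304 to 0.182 over all settings, and the log2 fold change was -0.23 without 4HC replicate 1. COL4A5 had 62.3, 59.9 and 64.0 CPM in control and 62.6, 64.8 and 61.9 CPM in 4HC. The COL4A5 groups overlapped (log2 fold change 0.02, 95% interval -0.07 to 0.12), and the ratio of COL4A6 to COL4A5 in TPM was 0.134 ± 0.00493 in control and 0.105 ± 0.0203 in 4HC.

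The members that rose were on the whole shorter genes than those that fell. In GENCODE release 29, the span from the first to the last base was 23.3 to 122 kb (median 36.5 kb) for the 7 that rose, 122 to 284 kb (median 177 kb) for the 4 that fell and 12.0 to 258 kb (median 86.6 kb) for the 15 others at 5 CPM or more. The ranges overlapped, since LAMC1, which rose, spans 122133 bases and COL12A1, which fell, 121726 bases. Spearman's rho of span and log2 fold change was -0.50 over these 26 members and -0.33 over all 43 tested. Over all genes at 5 CPM or more it was -0.085 (10156 genes). The genes share the same 6 libraries, so these are descriptions, and the part of gene span in any single value was not tested.

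**Figure D5:**
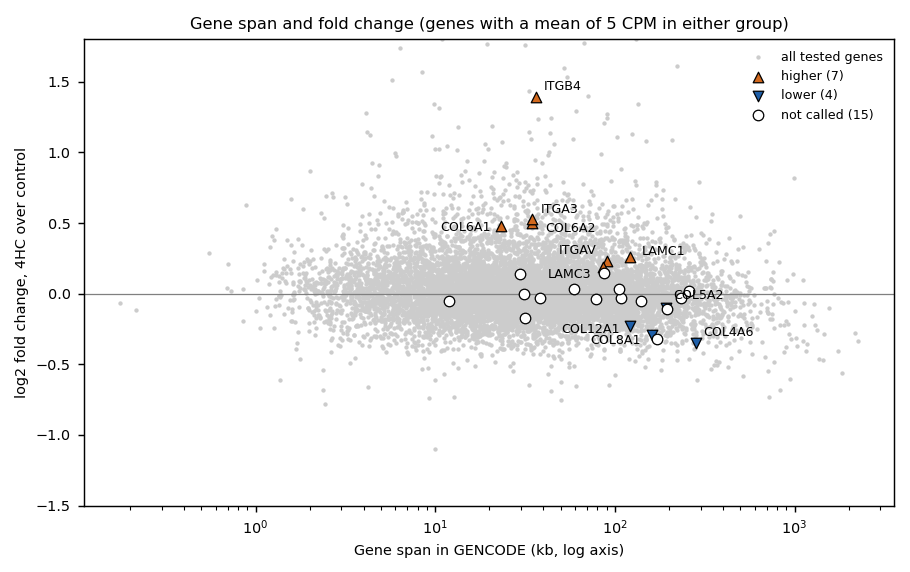
Log2 fold change of 4HC over control against gene span in kb (log axis) for 10156 genes that averaged 5 CPM or more in a group (grey, 9 of them beyond the axis) and for the 26 members (triangles up rose, triangles down fell, open circles not called). The triangles up lie between 23.3 and 122 kb and the triangles down between 122 and 284 kb, and the ranges meet at LAMC1 and COL12A1.

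Genes that process, accompany or read these proteins were counted from 5 lists. Of 101 listed genes, 98 had a row and 73 were tested, of which 12 rose and 18 fell (41.1%, against 36.4% of all genes). Of the 53 that averaged 5 CPM or more in a group, 56.6% were called, against 40.8% of genes at that level. The median over the 73 was -0.03 on the log2 scale. Among 19 tested genes of collagen folding and secretion, 4 rose and 3 fell (36.8%, close to the share of all genes). P4HA2, a prolyl hydroxylase subunit, rose from 35.3 ± 0.744 to 51.1 ± 5.98 CPM (log2 fold change 0.54, SE 0.061, adjusted p = 2.85e-10), and the lysyl hydroxylase PLOD3, P3H4 and CRTAP also rose. The folding isomerase FKBP14 fell from 98.4 ± 5.02 to 82.6 ± 3.83 CPM, and MIA2, which helps to export large cargo, from 35.6 ± 1.73 to 31.2 ± 0.709 CPM. The collagen chaperone SERPINH1 did not pass the test.

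Among 9 tested genes of propeptide cleavage and crosslinking, 1 rose and 2 fell (33.3%). BMP1, the protease that trims procollagen, rose from 15.5 ± 0.683 to 23.2 ± 1.85 CPM (log2 fold change 0.58, SE 0.076, adjusted p = 1.11e-08). Its enhancer PCOLCE2 fell from 18.2 ± 0.585 to 14.2 ± 0.286 CPM and the crosslinking enzyme LOX from 316 ± 7.11 to 289 ± 12.4 CPM. Other matrix proteins and receptors gave 3 higher and 6 lower of 15 (60.0%, against 36.4% of all genes). DDR1, a collagen receptor kinase, rose most in this list, from 35.2 ± 1.40 to 55.3 ± 2.89 CPM (log2 fold change 0.65, SE 0.055, adjusted p = 2.43e-14), and FBLN1 rose from 29.0 ± 2.60 to 37.8 ± 1.26 CPM. FBN1, the fibrillin of elastic microfibrils, fell from 218 ± 4.00 to 173 ± 6.40 CPM (log2 fold change -0.33, SE 0.036, adjusted p = 8.68e-11). Among genes whose proteins bind laminin, AGRN rose from 280 ± 8.42 to 343 ± 11.2 CPM (log2 fold change 0.29, SE 0.034, adjusted p = 7.88e-10), and HSPG2 and DAG1 fell, to 49.2 ± 2.08 CPM from 55.4 ± 1.44 and to 179 ± 9.26 CPM from 195 ± 4.32, while fibronectin (FN1) and NID1 did not pass the test.

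Of 17 tested integrin adaptors and kinases, 4 rose and 6 fell (58.8%, against 36.4% of all genes). Of the 15 that averaged 5 CPM or more, 66.7% were called. The focal adhesion scaffold PXN rose from 33.4 ± 1.15 to 44.5 ± 1.96 CPM (log2 fold change 0.41, SE 0.057, adjusted p = 3.67e-08) and BCAR1 from 25.4 ± 1.59 to 30.4 ± 0.683 CPM. TNS3, which links integrins to actin, fell from 7.97 ± 0.542 to 5.96 ± 0.145 CPM, and FERMT2, VCL, ZYX, LIMS1 and RSU1 also fell. The integrin activator TLN1 and the kinases ILK and PTK2 did not pass. Of 13 tested matrix proteases and inhibitors, none rose and ADAM17 fell from 110 ± 4.12 to 101 ± 1.55 CPM (7.69% called). Only 5 of the 13 averaged 5 CPM or more (20.0% called, against 40.8% of genes at that level). The lists therefore differed in expression level as well.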

How the data were processed

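Total RNA of 3 control and 3 4HC-treated COV434 samples was sequenced. The authors filtered reads with SOAPnuke and analysed them on the Dr. Tom system, and the submitters' processing notes name HISAT2, Bowtie2, RSEM 1.3.1, DESeq2 1.4.5 and GRCh38.p13 without their roles. The authors deposited expected counts per gene (85.5% whole numbers, not normalized) and TPM values scaled to transcript length. The authors also deposited FPKM values and their own fold changes with p-values, which were not used. Expected counts per sample and transcript were read from the deposited table of 79213 transcripts, 251 of them of the members.

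Here the expected counts were rounded, and the quasi-likelihood test of edgeR 4.0.16 (R 4.3.3; TMM, filterByExpr, no covariate) was fitted to the 12368 genes that passed the filter, with Benjamini-Hochberg adjustment over them. Replicates varied with a biological coefficient of 0.0277. The total expected count per sample was 16133786 to 16702316, so that a gene at 1 CPM has about 16 counts and 0 counts allow up to 3. The members and lists were chosen with earlier results of these data known. Genes named with values in every sample were those that passed the test and averaged 5 CPM or more in a group, and the 3 with the highest TPM in each family. Others at 5 CPM or more are given by their value, and companion genes by up to 3 per list with the largest change. ITGA2, ITGA2B, ITGA4, ITGA5, ITGA10, ITGB3, ITGB8, COL1A1, COL1A2, COL10A1, COL14A1, COL16A1, COL17A1, COL21A1, LAMA2, LAMA4 and LAMB1, the members without their partner, overlapping genes, AGRN, HSPG2, DAG1 and companion genes without values, were named after their values were seen. Locations, spans and overlaps came from GENCODE release 29 (GRCh38), which matched 16252 of the genes and all 79 members, because the strand in the deposited table was the same as in GENCODE for only 69.3% of genes. Samples were grouped by their titles. Other settings tried were the test of DESeq2 1.42.0, its size factors in edgeR, library size alone, no filter or a minimum of 10 counts per sample, a block for the replicate number, each sample left out, and other thresholds. On simulated counts of 12292 genes, a log2 change of 1.5 was recovered in 100% of cases and one of 0.5 in 87.9%, and 3.14% of 191 calls were false. The simulation changed 197 genes, gave every gene the same variation between replicates and held no change smaller than 0.5. Its rates therefore do not describe smaller changes, or data in which many genes differ. Python 3.11.15, pandas 2.3.3 and matplotlib 3.10.9 were used.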

Additional observations from a re-analysis of the deposited data

How the results depend on the processing

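Under 12 other settings, 7 of the 11 called members kept their call (ITGB4, ITGA3, ITGAV, COL6A1, COL6A2, COL8A1 and LAMC1), and none of the 11 changed direction. The number of members that rose was 7, and 6 to 8 with 1 sample left out. The number that fell was 4, and 2 to 4 with 1 sample left out, with 2 without control replicate 3. Companion genes that rose were 12, and 9 to 13 with 1 sample left out, and those that fell 18, and 14 to 19. With DESeq2, 6 members rose and 3 fell, and 8 companion genes rose, and the calls of LAMC3 (adjusted p = 0.0769) and COL4A6 (0.094) were lost. The study's thresholds (2-fold or more, unadjusted p under 0.05) were applied to the edgeR fit, not to the paper's DESeq2 results. The counts were then 1 and 0 for members and 0 and 0 for companion genes, since small changes cannot pass. Genes expressed in controls were 35 at 1 CPM, 42 at 0.5 CPM, 23 at 5 CPM and 25 at 1 TPM. Library size as the only scaling moved the median log2 fold change of all genes by 0.021.

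Samples with the same replicate number did not deviate together (correlations of 0.0311, 0.0852 and 0.0138), so the numbers were not taken as pairs. With the replicate number as a block, 7 members rose and 4 fell, and 11 companion genes rose and 18 fell. Depth limits genes near 1 CPM, where standard errors were 0.25 or more for ITGA2, ITGA5, ITGB3 and LAMB1. Outlying samples were not tested in groups of 3.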
